A study of Sus scrofa with 6 samples.

Results

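miR-21 is described here across 3 libraries of milk and 3 of milk exosomes from Rongchang pigs. The deposited sheet with sample names was searched for the mature names miR-21, miR-21-5p and miR-21-3p, and miR-21 was found, as 1 of 221 mature names and 1 of 245 distinct entries. The groups differ only in the material named by their labels, milk or exosomes collected from milk, and no label gives a treatment, a stage of lactation or the age of the sow. The series text adds 3 animals taken as biological replicates and mentions piglet small intestine, a tissue that appears in no sample label. It does not state whether a milk and an exosome library of the same number share an animal, so p-values measure the spread between these samples. Cells shed exosomes, vesicles bounded by a membrane, and miRNAs are short RNAs that guide the repression of messenger RNAs.

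miR-21 is among the most abundant miRNAs of many mammalian cell types. In human and mouse cells its transcription rises with AP-1 and STAT3 activity, and it represses PDCD4, which restrains translation and growth. It is present in epithelial cells, stromal cells and leukocytes alike, so its level alone does not name a cell of origin, and it is regularly listed among the miRNAs of milk. The human gene overlaps the end of the VMP1 gene. In the RefSeq gene table of the pig assembly Sscrofa11.1, MIR21 (synonym ssc-mir-21) lies between PTRH2 and TUBD1. No position is given, because the sources used here do not name the genome build behind the deposited values.

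The deposited mature sequence is shown because its seed, the stretch that pairs with target messengers, decides which other miRNAs could share its targets. It is written 5′ to 3′ with the seed (bases 2 to 8) in capitals, and with T for U as deposited.
miR-21: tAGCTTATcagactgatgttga
The sequence is 22 bases long, the median length of the 238 listed sequences, and its GC content of 36.4% lies below their median of 50%. Only 23 listed sequences had a lower one. It was the only one of the 238 with this seed, and no other name carried its sequence. The longest stretch it shared with another listed sequence was 8 bases, with miR-374a-3p. It held none of 4 short motifs searched on the given strand, of which the first is described as an exosome-sorting motif in human T cells. GGAG was held by 12.2% of the listed sequences, CCCT by 16.4%, GGCT by 10.5% and TGCA by 13.4%. A second deposited sheet with 1382 entries lists 4 names of miR-21, of which 3 carry the prefix of another species. They are miR-21-3p under a human name, and the 5′ arm under a zebrafish and a fugu name. Counted from the 5′ end of the pig sequence, the zebrafish entry differs by A16G and the fugu entry by A16G and A22G. Of the 5 entries of that sheet with the miR-21 seed, the other 2 are named miR-590-5p. The value columns of that sheet match no sample label, so their values were not used here.

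Depth and make-up of the libraries touch every value below. The value of 1 read was taken as the most frequent value above 0 in a library, which gave 9124580 read equivalents for milk 1 and 8020867 for milk exosome 3, called the deep libraries here. The 4 shallow libraries held 1901 to 9313. The deep libraries come from different groups, and across the 141 tested entries, which are not independent, their log2 values correlated at r = 0.993. The headers of the second sheet name its 6 value columns by 3 stems with 2 columns each, where the labels give 2 groups of 3. With this and the likeness of milk 1 to milk exosome 3, the group labels are in doubt, and every difference between milk and exosomes given here depends on them. No other pair of libraries exceeded 0.761, and milk exosome 2 correlated with the deep libraries at -0.03 and -0.02. Red cell miRNAs (miR-451, miR-144, miR-486 and miR-16) made up 90.4% and 89.9% of the signal in the deep pair and 2.92% to 12.4% in the shallow libraries. In milk exosome 2 the sum was 2.92%, with 2.71% from miR-486, which muscle also makes. In milk exosome 1 it was 4.19%, with 3.73% from the widespread miR-16. Epithelial and mammary markers, 5 of 10 listed ones found, summed to 0.00110% of milk 1, 0.00276% of milk exosome 3, 0.0256% of milk exosome 2 (where 4 of the 5 were at 0) and 0.391% to 1.26% of the others. In such bulk material, fewer cells or vesicles of a type and less RNA from each cannot be told apart.

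miR-21 was found in all 6 libraries, and its deposited level did not separate milk from exosomes. The deposited value is a normalized abundance. It was 1742 in milk 1, 4273 in milk 2 and 2573 in milk 3. In exosomes it was 6746 in milk exosome 1, 826 in milk exosome 2 and 2424 in milk exosome 3. The highest and the lowest library were both exosome libraries, and the 3 milk libraries lay between them. These values rest on whole numbers of reads in every library, from 22946 in milk 1 and 25877 in milk exosome 3 down to 749 in milk exosome 1, 298 in milk 2, 186 in milk 3 and 42 in milk exosome 2.

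**Figure D1:**
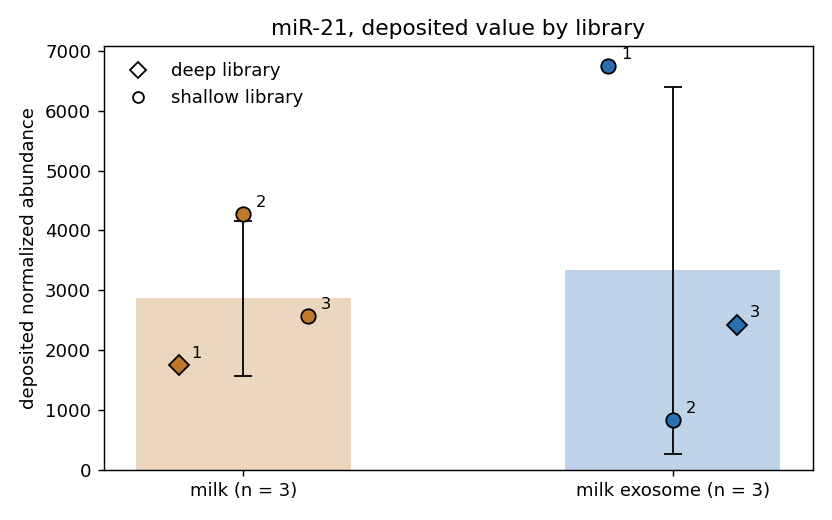
Deposited normalized abundance of miR-21 (vertical axis) in the milk and milk exosome groups. Bars are means of 3 libraries, error bars 1 SD, points single libraries with their replicate number, diamonds the deep and circles the shallow libraries. The exosome libraries at 826 and 6746 lie outside the range of the milk libraries, 1 on each side.

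The group means of the deposited value were 2863 ± 1290 (SD, n = 3) in milk and 3332 ± 3063 (SD, n = 3) in exosomes. On the log2 scale the order turned, with a difference of -0.17 in exosomes against milk (SE 1.20, 95% interval -2.96 to 2.62). This was not past the threshold (adjusted p = 0.997 in limma, fitted on all tested entries with log2(value + 1)). The difference was smaller than the spread between replicates, and the interval includes log2 changes of 2 in either direction. Without milk 2 it was 0.17 and without milk exosome 2 it was 0.60, so each of these libraries decided the sign. Without milk 1 it was -0.48 and without milk exosome 1 it was -0.92. Of the 141 entries tested by limma, 0 were called (0%), and at an unadjusted p under 0.05 there were also 0. At that cutoff 7.05 would be expected if no entry differed, so the 0 does not show that the groups are alike. The median log2 difference of all tested entries was 0.34, which put miR-21 0.51 below it. Rescaling to a common total moved that median to -0.29 and miR-21 to -0.87, which is 0.58 below the median. Within the deep libraries the log2 difference was 0.48, and within the shallow ones, 2 per group, it was -0.49 (adjusted p = 0.974 in limma).

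In the limma fits miR-21 varied less between replicates than most entries. Its residual SD within groups was 1.17 on the log2 scale against a median of 2.50, and 22 of the 141 entries had a smaller one. After rescaling to a common total it was 2.64 against 2.97, and 59 entries had a smaller one. Once each library was centred on the median of its tested entries, the residual SD of miR-21 was 0.66 against a median of 2.15, and 8 entries had a smaller one. On the deposited scale the SD of its log2 value over all 6 libraries was 1.05, the 21st smallest of the 84 mature names above 0 in every library. As a share of the library it was 2.41, the 48th smallest and above the median of 2.18. The filter of 10 lies below the value of 1 read in milk 2 (14.3), milk 3 (13.8) and milk exosome 2 (19.7). Entries resting on few reads are thus among those compared, while miR-21 rested on 42 reads or more. The part of abundance in its lower spread was not tested.

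As a share of the signal of all listed sequences, miR-21 ranged over 38.9-fold, and the order of libraries followed neither group. Bounds in parentheses are 95% Clopper-Pearson intervals (exact) from the read equivalents and cover counting error only. The share was 0.251% (0.248% to 0.255%) in milk 1, 6.85% (6.12% to 7.65%) in milk 2 and 9.79% (8.49% to 11.2%) in milk 3. In exosomes it was 8.04% (7.50% to 8.61%), 1.07% (0.775% to 1.45%) and 0.323% (0.319% to 0.327%) for the libraries 1, 2 and 3. In descending order milk 3 and milk exosome 1 had overlapping intervals, as did milk exosome 1 and milk 2. Each later step, to milk exosome 2, milk exosome 3 and milk 1, was beyond counting error. Both deep libraries were lowest. The mean share was 5.63% ± 4.88 in milk and 3.15% ± 4.26 in exosomes (SD, n = 3 each), and an exact two-sided permutation test gave p = 0.70, where 3 against 3 cannot go below 0.10. The difference of -2.48 percentage points, exosomes minus milk, depended on single libraries. It was -5.17 without milk 1 and -0.406 without milk 3. Leaving out an exosome library gave -4.93 (library 1), -1.45 (library 2) and -1.07 (library 3).

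Taking the 4 red cell miRNAs out of the total raised the share of miR-21 to 10.5 times its value in milk 1 and 9.93 times in milk exosome 3, and to 1.03 to 1.14 times in the shallow libraries. The shares then were 2.63% (2.60% to 2.67%) in milk 1, 7.83% (6.99% to 8.73%) in milk 2 and 10.9% (9.49% to 12.5%) in milk 3. In the exosome libraries they were 8.39% (7.83% to 8.99%), 1.11% (0.799% to 1.49%) and 3.20% (3.16% to 3.24%), in order of their numbers. The range shrank to 9.88-fold, and milk exosome 2 became the lowest library in place of milk 1. Only milk exosome 1 and milk 2, which are neighbours in this order, had overlapping intervals. The means were 7.13% ± 4.19 in milk and 4.23% ± 3.75 in exosomes (SD, n = 3 each), and the groups overlapped (exact two-sided permutation p = 0.50). Their difference of -2.90 percentage points became -5.14 without milk 1, -0.995 without milk 3, -4.98 without milk exosome 1 and -1.33 without milk exosome 2. Between the deep libraries the exosome library was higher by 0.570 percentage points, while among the shallow libraries, 2 per group, the exosome mean was lower by 4.63 percentage points, a contrast between the depth classes that was not tested.

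Muscle miRNAs stand beside the low value of milk exosome 2. The muscle marker list, 6 of 7 listed names found, came to 55.6% there. It was 10.7% in milk 2, 7.82% in milk exosome 1 and 0.658% in milk 3, and at most 0.00443% in a deep library. With this list also left out, a choice made after the values were seen, miR-21 held 2.59% (1.87% to 3.49%) of milk exosome 2. That lies beside 2.63% in milk 1 and 3.20% in milk exosome 3. The other 3 libraries were at 8.92% (milk 2), 11.0% (milk 3) and 9.14% (milk exosome 1). On this base the 6 libraries fell into 3 low and 3 high ones, each set holding both groups. The group means were 7.52% ± 4.36 in milk and 4.98% ± 3.62 in exosomes (SD, n = 3 each, exact two-sided permutation p = 0.60). The part of muscle or red cell RNA in the level of miR-21 was not tested.

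**Figure D2:**
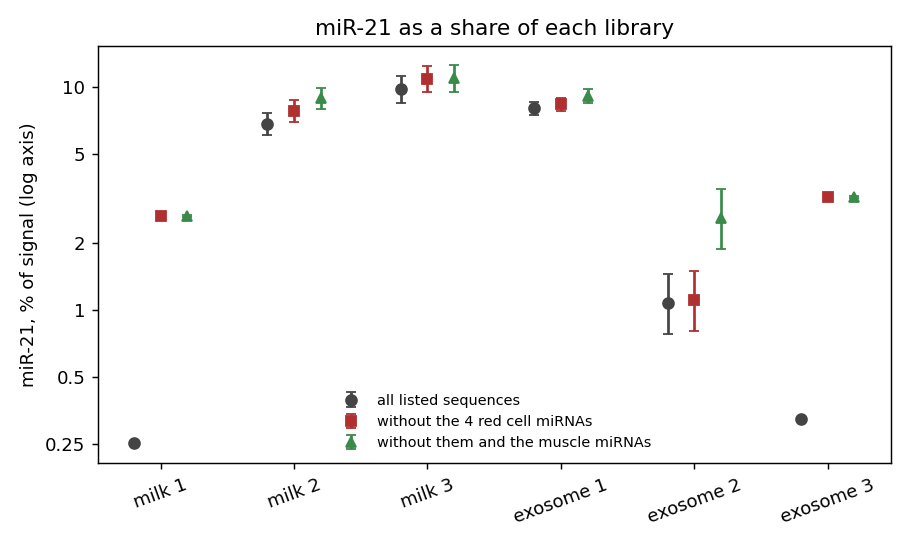
Share of miR-21 in the signal of each library, in percent on a log axis, of all listed sequences (circles), without the 4 red cell miRNAs (squares) and without these and the muscle miRNAs (triangles). Error bars are exact 95% intervals for counting error, smaller than the symbols in milk 1 and exosome 3. Milk 1 rises from 0.251% to 2.63% once the red cell miRNAs are left out, and exosome 2 from 1.11% to 2.59% once the muscle miRNAs are left out as well.

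**Figure D3:**
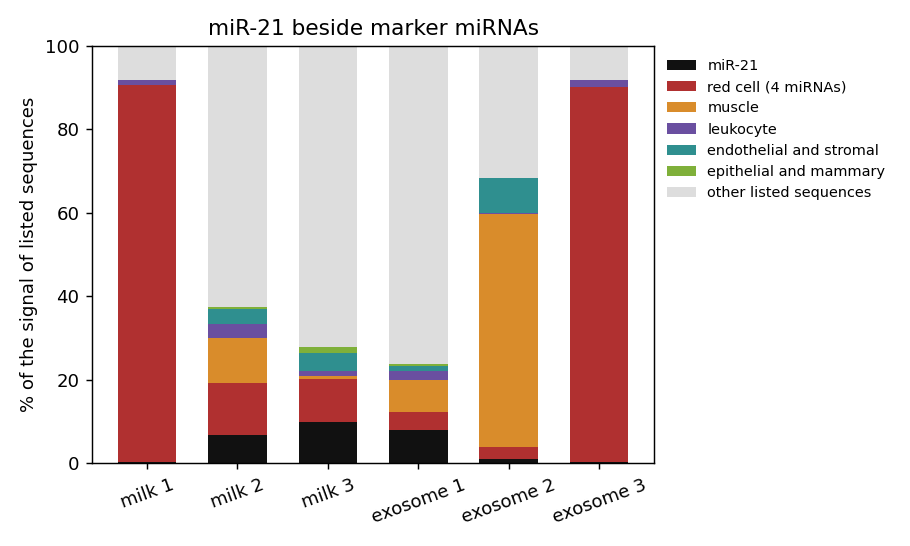
Make-up of each library in percent of the signal of the listed sequences, with miR-21 at the bottom of each bar, then the 4 red cell miRNAs, 4 marker lists and all other listed sequences. Red cell miRNAs hold 90.4% of milk 1 and 89.9% of exosome 3, muscle miRNAs hold 55.6% of exosome 2, and miR-21 holds 6.85% to 9.79% of the other 3 libraries.

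Against miR-451, miR-21 moved over several orders of magnitude, and over a narrower range against miR-16 and miR-486. The ratio of miR-21 to miR-451, the main miRNA of the red cell lineage, was 0.00303 in milk 1 and 0.00396 in milk exosome 3. It was 1.54 in milk 2 and 1.41 in milk 3. In milk exosome 1 it was 187 and in milk exosome 2 it was 42.0, where miR-451 rested on 4 reads and 1 read. In the shallow libraries miR-21 thus exceeded miR-451, and in both deep ones it lay far below. miR-144, a red cell miRNA of the same transcript as miR-451, stood at 17517 and 29230 in milk 1 and milk exosome 3, at 129 and 138 in milk 2 and milk 3, while the first 2 exosome libraries list it at 0, where 3 reads would be worth 27.0 and 59.0. The ratio of miR-21 to miR-16, which is widespread and abundant in red cells, was 0.0556 in milk 1, 1.01 in milk 2 and 3.72 in milk 3, and 2.16, 6 and 0.0782 in milk exosome 1 to 3. miR-486, another red cell miRNA that muscle also makes, went its own way. The ratio of miR-21 to it was 0.602 and 0.729 in the deep libraries, 6.93, 26.6 and 19.2 in milk 2, milk 3 and milk exosome 1, and 0.396 in milk exosome 2.

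By rank miR-21 led milk 3 and ranked 3 in milk 2 and in milk exosome 1. It was 14th in milk exosome 2, 18th in milk exosome 3 and 20th in milk 1, and without the red cell miRNAs 13th, 14th and 16th. Its neighbours differed with the library. In milk 1 it stood between let-7g (1846) and miR-148a-3p (1532), an abundant milk miRNA, and in milk exosome 3 between let-7g (2654) and miR-186 (2376). In milk 2 it stood between the muscle miRNA miR-1 (4488) and miR-16 (4223), and in milk 3 miR-148a-3p followed it (2130). miR-23a (9160) preceded it and miR-221-3p (4296) followed it in milk exosome 1. miR-378 (885) and miR-885-5p (786) enclosed it in milk exosome 2. let-7g was thus the next more abundant name in both deep libraries. The names directly above miR-21 in the shallow libraries all differed, and milk 3 had none.

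A ratio to other miRNAs of the same library does not depend on how the authors scaled it. As a base, 7 names of 6 listed miRNAs often used as references in miRNA assays were taken (let-7a, miR-26a, miR-103, miR-107, miR-191, miR-423-3p and miR-423-5p). miR-21 exceeded their geometric mean by 2.63-fold in milk 1, 9.49-fold in milk 2 and 9.78-fold in milk 3. The excess was 11.1-fold in milk exosome 1, 2.77-fold in milk exosome 2 and 3.60-fold in milk exosome 3. miR-107 was at 19.7 in milk exosome 2, which is the value of 1 read. In milk 3 it was at 27.7, where 3 reads would be worth 41.5. The geometric means of milk exosome 2 and milk 3 are imprecise for that reason. Again milk 1, milk exosome 2 and milk exosome 3 were low, and milk 2, milk 3 and milk exosome 1 were high. On the log2 scale the mean ratio was 2.64 ± 1.08 in milk and 2.26 ± 1.07 in exosomes (SD, n = 3 each), a difference of -0.38 (exact two-sided permutation p = 1.00). It was 0.45 within the deep libraries and -0.79 within the shallow ones, and leaving out any 1 library moved it by over 1.5 times. It became -1.004 without milk 1, -0.0793 without milk 2 and -0.0576 without milk 3. Without milk exosome 1, 2 or 3 it was -0.99, 0.0167 and -0.17. The choice of reference changed the sign. Against miR-191 alone the difference was 1.06 (exact p = 0.30), and against each of the other 6 it was negative, from -0.94 to -0.29.

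miR-191 had the largest log2 difference in size among these references. It was at 2076, 2983 and 1785 in milk 1 to 3, against 937, 432 and 2104 in milk exosome 1 to 3, a log2 difference of -1.23 (SE 1.09, adjusted p = 0.997 in limma). let-7a was at 460, 531 and 609 in the milk libraries, against 428, 1435 and 573 in the exosome libraries. miR-21 stood above let-7a in 5 libraries, by 3.79-fold to 15.8-fold, and below it in milk exosome 2 with a ratio of 0.575. For miR-26a the ratios were 1.25 to 11.3 in those 5 libraries and 0.462 in milk exosome 2. The other references differed from let-7a and miR-26a in milk exosome 2. There miR-21 exceeded each of them, from 1.91-fold (miR-191) to 42.0-fold (miR-107, which rested on 1 read).

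**Figure D4:**
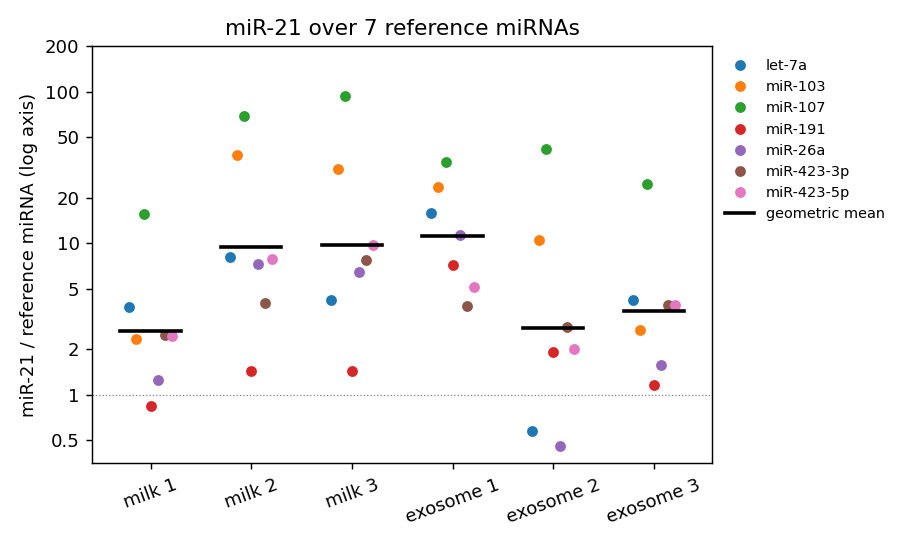
Ratio of miR-21 to each of 7 reference miRNAs (points) and to their geometric mean (black bars) in each library, on a log axis with the dotted line at equal level. The geometric mean ratio is 2.63 to 3.60 in milk 1, exosome 2 and exosome 3, and 9.49 to 11.1 in the other 3 libraries.

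The miRNAs most like miR-21 were sought among the 83 other mature names above 0 in every library. Likeness is a description over 6 libraries that share their depth and make-up, and it carries no test. By the SD of the log2 ratio to miR-21, the closest were miR-423-3p (0.57), miR-505 (0.59), miR-532-5p (0.68), miR-24-3p (0.74) and miR-423-5p (0.91), against a median of 1.83 over all 83. miR-423-3p was at 701, 1061 and 332 in milk 1 to 3, against 1738, 295 and 618 in milk exosome 1 to 3. miR-21 exceeded it by 2.49-fold to 7.75-fold, with the highest ratio in milk 3 and the lowest in milk 1. miR-24-3p, made from the same clusters as the miR-23 and miR-27 miRNAs, was at 186, 617 and 228 in the milk libraries, against 1968, 177 and 192 in the exosome libraries. The values of miR-505 and miR-532-5p rested on 1 read each in milk exosome 2 and on 4 reads each in milk 3, so their closeness is imprecise. At the far end stood miR-451 with 6.63, miR-133a-3p with 6.61 and miR-1 with 6.45, the last pair muscle miRNAs.

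**Figure D5:**
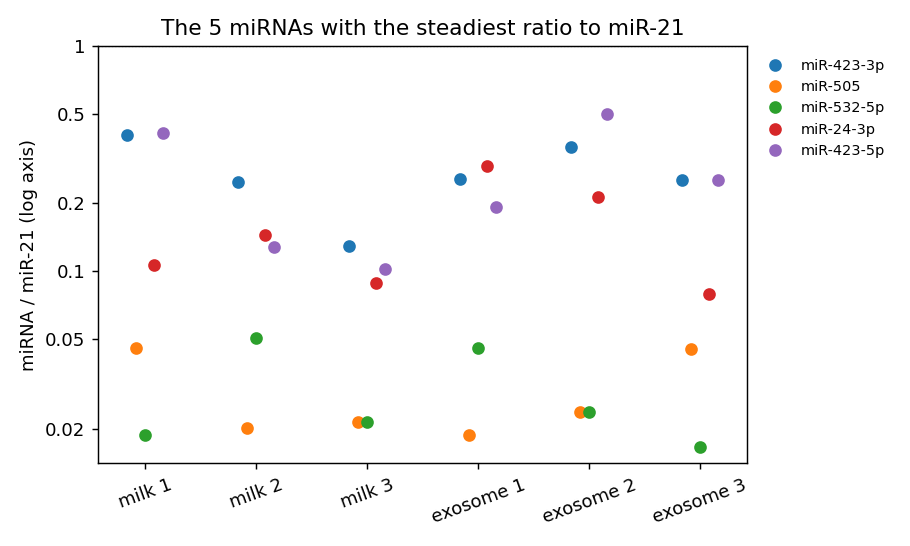
Ratio of the 5 miRNAs with the smallest SD of the log2 ratio to miR-21 (vertical log axis, the upper edge marking equal level) in each of the 6 libraries. All 5 stay below miR-21 in every library, and miR-423-3p lies between 0.129 and 0.402 of it.

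By Pearson's r of log2(value + 1) with miR-21 the leading names were miR-532-5p (0.946), miR-222 (0.884), miR-27a (0.872), miR-23a (0.871) and miR-24-3p (0.854), against a median of 0.17. miR-23a, miR-27a and miR-24-3p are encoded in one cluster, and miR-222 is made with miR-221. miR-23a was at 656, 6273 and 553 in milk 1 to 3, against 9160, 472 and 931 in milk exosome 1 to 3. It thus exceeded miR-21 in milk 2 and milk exosome 1, the libraries in which miR-21 was itself highest on the deposited scale. miR-27a exceeded miR-21 in milk exosome 1 (10965), and it was at 820, 3133 and 235 in milk 1 to 3 and at 177 and 835 in milk exosome 2 and 3. miR-222 was at 1319 in milk 2 and 1027 in milk exosome 1 and at 19.7 to 90.5 in the other 4 libraries, with 1 read in milk exosome 2. miR-532-5p and miR-24-3p were among the closest by both measures.

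miRNAs that are usually discussed with miR-21 were read by counts, beside the median log2 difference of 0.34 over all entries and its 0 calls. Of all 141 tested entries 84 were higher and 57 lower in exosomes, and after rescaling to a common total 47 were higher and 94 lower. The splits of the 4 lists also moved towards lower, so the direction of a list is not a result about it. Of the inflammation-linked list 5 entries were tested, 2 higher and 3 lower in exosomes with a median of -0.26, and none passed. On a common total it was 1 higher and 4 lower (median -0.96). miR-125b, its most abundant member, was at 151, 574 and 609 in the milk libraries, against 477, 1592 and 176 in the exosome libraries, summed over its 2 entries. miR-21 exceeded it by 4.23-fold to 14.1-fold except in milk exosome 2, where the ratio was 0.519. miR-132, with the smallest p of the list, had a log2 difference of -1.16 (SE 1.93). It was at 28.7 in milk 2, 13.8 in milk 3 and 0 in milk exosome 2. There 3 reads would be worth 43.0, 41.5 and 59.0.

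The fibrosis-linked list had 8 tested entries, 4 higher and 4 lower with a median of -0.11, and none passed. On a common total all 8 were lower (median -0.85). The entries miR-199a-5p and miR-199b-5p had the same values in every library, so these counts hold the same measurement under both names. miR-29a, which represses collagen messengers and is its most abundant member, was at 968, 774 and 450 in the milk libraries, against 968, 737 and 1241 in the exosome libraries. Its log2 difference was 0.46 (SE 1.00), and miR-21 exceeded it in every library, by 1.12-fold to 6.97-fold. miR-199a-5p, a miRNA of stromal cells with the smallest p, was at 1.52, 110 and 138 in the milk libraries, against 24.0, 39.3 and 2.53 in the exosome libraries (log2 difference -1.15, SE 2.13). Its values in milk exosome 1 and 2 lay below that of 3 reads (27.0 and 59.0).

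Among milk-abundant miRNAs 11 entries were tested, 8 higher and 3 lower with a median of 0.41, and none passed. After rescaling to a common total the split was 3 higher and 8 lower (median -0.28). miR-148a-3p was at 1532, 1334 and 2130 in the milk libraries, against 2333, 118 and 1444 in the exosome libraries. miR-21 exceeded it in every library, by 1.14-fold in milk 1, 3.20-fold in milk 2 and 1.21-fold in milk 3. In exosomes the excess was 2.89-fold, 7.00-fold and 1.68-fold in order of their numbers. The ratio of 7.00 is imprecise, since miR-148a-3p was at 118 in milk exosome 2, where 1 read is worth 19.7. The log2 difference of miR-148a-3p was -1.15 (SE 1.37). miR-182, an epithelial miRNA with the smallest p of this list, was at 5.16, 28.7 and 138 in the milk libraries, against 9.01, 0 and 14.3 in the exosome libraries (log2 difference -2.46, SE 1.94, adjusted p = 0.997 in limma). It lay below the value of 3 reads in milk 2 (43.0) and in milk exosome 1 and 2 (27.0 and 59.0). The reference list had 7 tested entries, 6 higher and 1 lower with a median of 0.41, and none passed. Rescaled to a common total, 1 was higher and 6 were lower (median -0.28).

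Marker lists of cells that could carry miR-21 took different orders over the libraries. Without the red cell miRNAs, leukocyte markers (5 of 6 found) held 12.8% of milk 1 and 15.7% of milk exosome 3, where miR-21 was at 2.63% and 3.20%. In the shallow libraries they held 0.316% to 3.83%. Endothelial and stromal markers, all 7 found, held 8.61% of milk exosome 2, the library with the lowest share of miR-21, and 0.0974% and 0.136% of the deep pair. Their part was 4.16% in milk 2, 4.79% in milk 3 and 1.43% in milk exosome 1. In milk exosome 2, miR-10b alone held 4993 of this list's deposited signal of 6421. Epithelial and mammary markers were highest in the same 3 libraries as the share of miR-21, with 1.41% in milk 3, 0.446% in milk 2 and 0.426% in milk exosome 1. They were at most 0.0274% in the other 3. In the shallow libraries these shares rest on few reads. The deposited sums were 332 in milk 3, 244 in milk 2 and 342 in milk exosome 1, where 1 read is worth 13.8, 14.3 and 9.01. In milk exosome 2 the sum was 19.7, the value of 1 read. The contribution of any of these cells to miR-21 was not tested.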

How the data were processed

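Small RNA of 6 samples was sequenced, 3 of milk and 3 of milk exosomes. Per the labels' protocols, Trizol RNA went into TruSeq Small RNA libraries read single-end on an Illumina instrument. The deposited values are a signal, a normalized abundance made by the authors for each sample. The sources used here name no aligner, annotation, normalization method or filter, and no count model applies.

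Of 279 lines, 34 exact repeats were dropped, and names were cut to the mature name. Shares are over 238 distinct sequences, of which 7 carried more than 1 name. The limma fit kept each name as its own entry. The 6 value columns of a second sheet match no sample label and were not used. Their names form 3 stems, not the 2 labelled groups, and the group labels are in doubt. Read equivalents are estimates, since 72.7% to 93.9% of a library's values were whole multiples of its most frequent value, within 0.01 reads. Libraries were called deep or shallow at the geometric middle of their range.

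Exosome minus milk was fitted with limma 3.58.1 (R 4.3.3, intensity trend) on the 141 entries at 10 or more in at least 3 libraries. Benjamini-Hochberg adjustment was used with a threshold of 0.05. The fit was also run on simulated data, whose outcome is not given here, and no statement rests on it. Single values were compared by exact permutation tests (scipy 1.17.1, numpy 2.4.6, pandas 2.3.3, Python 3.11.15, matplotlib 3.10.9). Named are the 5 miRNAs closest to miR-21 by each measure, its neighbours by rank, the 4 red cell miRNAs and, per list, the member with the highest mean and that with the lowest p. The result of 1 planned list is not reported here. miR-133a-3p, let-7a and miR-374a-3p were added after their values were seen. The single values or ratios of miR-26a, miR-103 and miR-107 and the mention of miR-199b-5p also lie outside the naming rule above. miR-21, the lists and the tests were chosen with earlier results of these data known. Alternatives were other pseudocounts, filters, scalings and references, no trend, summed names, a replicate block, a depth term, the shallow libraries alone and each library left out. The removal of muscle miRNAs and the list splits on a common total were added after the values were seen.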

Additional observations from a re-analysis of the deposited data

How the results depend on the processing

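The limits are depth and single libraries. miR-21 rests on 42 reads in milk exosome 2 and 186 in milk 3, and on 22946 and 25877 in the deep libraries. With 1 library left out in turn, the log2 difference ran from -0.92 (without milk exosome 1) to 0.60 (milk exosome 2). The share difference ran from -5.17 (milk 1) to -0.406 (milk 3) percentage points, and that without the 4 red cell miRNAs from -5.14 (milk 1) to -0.995 (milk 3). The log2 ratio to the references ran from -1.004 (milk 1) to 0.0167 (milk exosome 2). The log2 difference was positive without milk 2 and without milk exosome 2, the ratio without milk exosome 2 and against miR-191 alone (1.06). The number of entries that passed was 0 in every setting run. At an unadjusted p under 0.05 it was 5 without milk exosome 3, 2 in each of 3 settings (common total, depth term, shallow libraries alone) and 0 in the others. Where it was 5 or 2, 7.05 would be expected if no entry differed. All other settings kept the negative sign of the 4 differences. There the log2 differences of miR-21 ran from -0.97 (common total without the 4 red cell miRNAs) to -0.17. miR-21 passed in no limma fit. The exact permutation tests of the other 3 differences could not pass 0.05, so they cannot decide. Their smallest possible p was 0.10 with all 6 libraries, 0.20 with 1 library left out and 0.33 in the shallow libraries alone. Leaving miR-25 and miR-93 out of the references changed nothing, since neither was among the 7 names used. Deviations of same-numbered samples from their group means correlated at -0.25, 0.39 and -0.48 across 141 entries. Numbers 1 and 3 each pair a deep with a shallow library, while milk 1 and milk exosome 3, both deep, reached 0.85. These correlations therefore cannot decide whether same-numbered samples share an animal. The numbers are taken only as names. With the replicate block the log2 difference was -0.17 (SE 2.33) with 0 entries passing, and the sign-flip tests of the other 3 differences gave exact p = 0.50 to 1.00, where 0.25 is the smallest possible.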
